A study of Dicentrarchus labrax with 10 samples.

Results

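The 194 transcripts described here are cDNA clones whose names begin with cDN33P, called library 33 after that prefix, and they were among the brighter signals of sea bass gonads. The array carried 859 clones with this prefix among 11705 transcripts in all. A clone was taken when its probe was well above background in at least 50% of its spots on all 10 arrays and its mean signal lay above 0 and at most 6 log2 units, counted from the 75th percentile of its array. For a clone with several probes the brightest was used. The choice therefore rests on the signal averaged over both groups, and the levels below describe how the clones were chosen. Of the remaining clones of the library, 407 were well above background on all 10 arrays but had a mean of 0 or less, 196 were well above background on 1 to 9 arrays, and 62 on none. None had a mean above 6.

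RNA came from the gonads of 10 individual European sea bass (Dicentrarchus labrax), with 1 Agilent array in a single colour for each fish. All fish were kept at 17 °C for the first 20 days post hatch (dph). The 5 fish called HTE2 then went to 21 °C and the 5 fish called LTE2 to 15 °C until 60 dph, after which LTE2 was raised to 21 °C too. Both groups ate food carrying estradiol from 90 to 154 dph, were labelled putative females, and were sampled at 170 dph. Each temperature had 1 tank, so the effects of tank and of temperature cannot be told apart. Fish without estradiol were not analysed here. A difference between the groups is thus between early warm and early cool rearing of fish that were all fed estradiol.

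In European sea bass the sex of a fish depends on many genes and on the temperature of early life, and early warmth is known to shift sex ratios towards males. Estradiol is the main female sex steroid, which ovaries make from androgens through the enzyme aromatase, and feeding it to young fish feminizes them. A cDNA library is a collection of clones copied from the messenger RNA of a tissue. A clone that is not merged with others into a contig usually keeps a name made of its library, plate and well. The names end in the way of single sequencing traces, an ending left out here, and are read here as 7 plates with rows A to P and columns up to 24. The files and the gene table used here pair none of the 194 names with a gene, so no gene name or role is given. For the same reason the gonad could not be checked against marker genes, and in whole gonad fewer cells of a type and less RNA per cell cannot be told apart.

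The library 33 transcripts came from all 7 plates, from 18 of 113 clones on plate 5 (15.9%) to 35 of 129 on plate 4 (27.1%). In all, 22.6% of the clones of the library met the bounds on level and detection. The share was 22.8% in library 28, with 217 of 953 clones, and between 13.4% and 36.5% in the clone libraries. Among assembled contigs it was 42.2%. The transcripts had between 1 and 4 probes, with a single probe for 115, 2 for 1, 3 for 74 and 4 for 4.

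The mean level over the 10 fish ran from 0.02 to 5.59 log2 units with a median of 1.13, and the middle 50% lay between 0.56 and 2.01. Probes differ in how strongly they bind, so the level of 1 probe is not set against that of another as an amount of RNA. The clones just inside the lower bound were cDN33P0003F02, cDN33P0001D10 and cDN33P0003N13, with means of 0.02, 0.03 and 0.03. Just outside it lay cDN33P0005D13, cDN33P0006J23 and cDN33P0006J24 at -0.01, -0.02 and -0.04. No clone lay near the upper bound. The highest means were 5.59 for cDN33P0002N07, 5.43 for cDN33P0003L17 and 5.20 for cDN33P0004J09. On the linear scale the dimmest value among the 194 was a processed intensity of 165.0, in LTE2 replicate 1. No spot was saturated.

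Brightness differed between the groups. The 75th percentile of the processed intensity averaged 527.5 ± 170.1 over the 5 LTE2 arrays and 942.6 ± 300.4 over the 5 HTE2 arrays (SD), and it was higher in HTE2 on all 5 slides. Each slide held the LTE2 and the HTE2 array of the same replicate number, always at places 3 and 4, so place and group cannot be told apart. HTE2 replicates 3 and 4 stood apart from the other fish, with root mean square deviations from their group mean of 0.68 and 0.71 over the 194 transcripts against 0.25 to 0.35 in the other 8 fish. The counts of passing and of non-overlapping transcripts and the ranges of the named differences are given with and without replicate 3.

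Early warm rearing went with lower levels of more library 33 transcripts than it went with higher levels. Of the 194, 45 were lower and 18 higher in HTE2 than in LTE2 at a Benjamini-Hochberg adjusted p under 0.05 (limma), and 131 did not pass. The largest fall was 5.75-fold, in cDN33P0007I13, and the largest rise 5.56-fold, in cDN33P0004B12. The median change was 2.22-fold among the falls and 1.91-fold among the rises. Over 2-fold, 26 fell and 8 rose, or 13.4% and 4.12%, against 9.35% and 7.53% of all transcripts tested. Library 28 under the same bounds was close, at 13.8% and 3.23%. The rest of the array at the same brightness and detection, 2879 transcripts including 1395 assembled contigs, had 10.9% and 7.92%. The background was high: of 9910 transcripts tested, 25.5% passed, 14.6% of them lower and 10.9% higher, given as shares of all tested. Against that, 32.5% of the library 33 transcripts passed, 23.2% lower and 9.28% higher.

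Transcripts of the same brightness and detection in the rest of the array, contigs included, passed at 30.4%, with 17.1% lower and 13.4% higher. In library 28, chosen by the same bounds, 43 of 217 were lower (19.8%) and 12 higher (5.53%). The 531 dimmer library 33 clones tested passed at 18.6%, with 78 lower and 21 higher. These shares were set side by side without a test, and the libraries share the same 10 fish.

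The median difference, HTE2 minus LTE2, was -0.36 log2 units over the 194 transcripts and -0.27 over all transcripts tested. It was further below 0 in library 28 under the same bounds, at -0.56, and in the dimmer library 33 clones, at -0.40. In the rest of the array at the same brightness and detection, contigs included, it was -0.26. The difference was below 0 in 136 of the 194, in 166 of 217 in library 28 and in 6290 of all 9910. Direction is relative to the scaling of the arrays. With scaling to the added spike-in RNA the median of all transcripts moved to 0.75 and that of the library 33 transcripts to 0.66, and 21 of the 45 falls then had a difference above 0, while all 18 rises stayed above 0. Both scalings subtract 1 value per array, so a change between them moves the difference of every transcript alike. The library 33 median therefore had to keep its place relative to the median of all transcripts, 0.09 lower in both. The rises likewise had to stay above 0. With normexp background correction the library 33 median lay 0.28 higher, as the median of all transcripts was -0.51 and that of the library 33 transcripts -0.23. The calls moved too, from 18 higher and 45 lower to 24 and 30 with median centring (27.8% against 23.2% of all transcripts) and 20 and 26 with normexp correction (23.7% against 22.4%). With spike-in scaling 16 were higher and 0 lower, 8.25% against 12.4% of all transcripts, so that fewer of the library 33 transcripts passed than of all transcripts. None of the 63 passing transcripts changed sign under quantile normalization, median centring, normexp correction or in the authors' deposited table of values. Median centring moved every difference by the same amount, less than the smallest passing difference, so it could not change a sign.

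**Figure D1:**
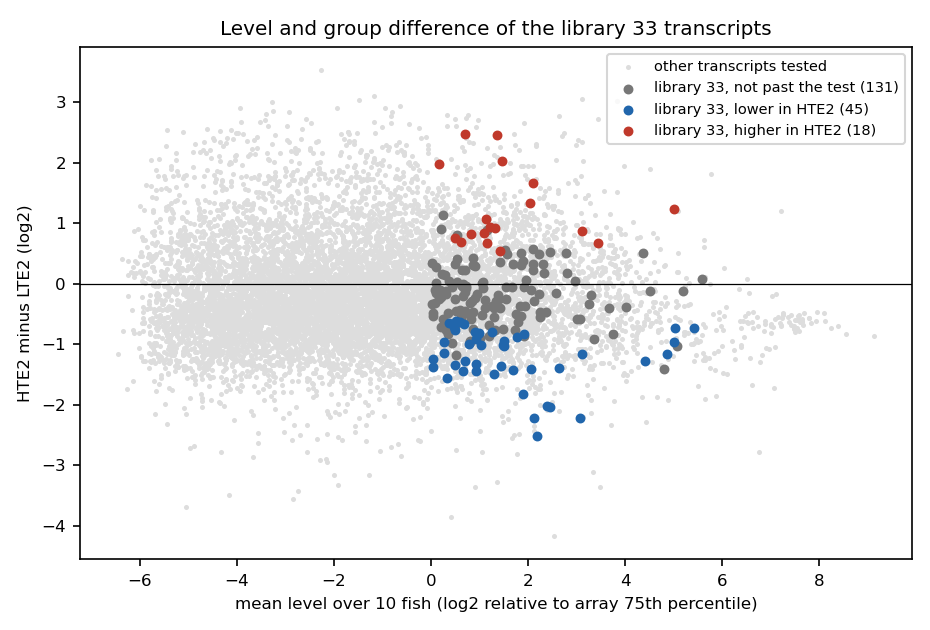
Mean level over the 10 fish (x axis, log2 relative to the array 75th percentile) against HTE2 minus LTE2 (y axis, log2), 1 point per transcript. Grey points are all other transcripts tested, and coloured points are the 194 library 33 transcripts, 45 of them lower (blue) and 18 higher (red) in HTE2.

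With the slide as a replicate block, 36 library 33 transcripts passed, 26 lower and 10 higher, or 18.6% against 15.1% of all transcripts. Of these, 35 were among the 63. With the slide as a random block 65 passed, 47 lower and 18 higher, or 33.5% against 26.2% of all transcripts. All 63 were among them, and the correlation within slides in that fit was 0.018. With array brightness as a covariate 2 passed, cDN33P0007I13 and cDN33P0003J09, both lower, or 1.03% against 0.565% of all transcripts. Without HTE2 replicate 3, 100 passed, 75 lower and 25 higher, 51.5% against 41.8% of all transcripts, and all 63 were among them. Without both arrays of replicate 3, 92 passed, 69 lower and 23 higher, or 47.4% against 37.4% of all transcripts. Leaving out LTE2 replicate 3, 4 or 5 gave 39, 27 and 31, or 20.1%, 13.9% and 16% against 20.4%, 11.6% and 12.4% of all transcripts. Leaving out HTE2 replicate 1, 2 or 5 gave 31, 31 and 35, or 16%, 16% and 18% against 12.5%, 14% and 15.1%. Leaving out LTE2 replicate 1 or 2 gave 45 and 42, or 23.2% and 21.6% against 19.5% and 17.0%. In several of these fits the library 33 share lay near that of all transcripts. In the authors' deposited table, put through the same fit, 74 passed, 49 lower and 25 higher, against 24.6% of all transcripts, and 58 of the 63 were among them.

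The 2 groups did not overlap in 40 transcripts, 30 lower and 10 higher in HTE2, or 20.6%. Of all transcripts tested, 13.7% did not overlap (9.17% lower and 4.5% higher). At the same brightness and detection the share was nearer, at 16.8% in the rest of the array, contigs included, and 16.1% in library 28. The shares were compared without a test. Without HTE2 replicate 3 the groups did not overlap in 97, 72 lower and 25 higher, or 50% against 36.6% of all transcripts. Leaving out a fish cannot lower this count, and HTE2 replicate 3 was already known to lie nearest to LTE2. Leaving out any other HTE2 fish gave 40 to 44, or 20.6% to 22.7% against 14.5% to 15.2% of all transcripts. In most of the deepest falls, described next, the groups did not overlap even with all 10 fish in.

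The transcript cDN33P0007I13 had the largest fall and the smallest adjusted p of those named. Its 5 LTE2 values were 3.44, 3.15, 3.60, 3.48 and 3.62, and its HTE2 values 0.47, 0.75, 1.54, 0.78 and 1.14, in the order of replicates 1 to 5. Every HTE2 fish thus lay more than 1.5 log2 units below the lowest LTE2 fish, and HTE2 replicate 3 was the nearest to LTE2. The group means, each of 5 fish, were 3.46 ± 0.19 and 0.94 ± 0.41 (SD), a change of -2.52 with an SE of 0.23. The adjusted p from limma was 0.000253, and 0.00537 with the replicate block. Under spike-in scaling the difference was -1.50, below 0, but it did not pass there.

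The next fall was that of cDN33P0003J09, with LTE2 values of 3.89, 4.07, 4.26, 4.38 and 4.36 and HTE2 values of 1.86, 1.67, 2.70, 1.93 and 1.69. Again the groups did not overlap, and replicate 3 was the highest HTE2 fish. The group means were 4.19 ± 0.21 and 1.97 ± 0.42 (SD over 5 fish), a change of -2.22 with an SE of 0.23 and an adjusted p of 0.000608 by limma. The 5 slides gave differences between -2.67 and -1.57.

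The third was cDN33P0003C05, with LTE2 values of 3.01, 2.77, 3.30, 3.69 and 3.36 and HTE2 values of 1.33, 1.09, 2.05, 0.07 and 0.51. Here HTE2 replicate 4 was the lowest fish and replicate 3 the highest of its group, and their range of almost 2 log2 units stayed below all LTE2 fish. The difference was -2.21 (SE 0.35, limma adjusted p = 0.00468).

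Close to it were cDN33P0007K24 with a difference of -2.04, cDN33P0003O09 with -2.03 and cDN33P0005J15 with -1.82 (limma adjusted p = 0.00332, 0.00203 and 0.00609). The LTE2 fish were tight in cDN33P0003O09, between 3.33 and 3.55 with an SD of 0.09, while the HTE2 fish ran from 0.68 to 2.25. In cDN33P0005J15 the LTE2 fish lay between 2.65 and 3.03 and the HTE2 fish between 0.34 and 2.11. In all 3 the groups did not overlap and HTE2 replicate 3 was the highest HTE2 fish.

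The remaining 4 of the 10 largest falls were cDN33P0007L11 at -1.56, cDN33P0007K23 at -1.49, cDN33P0005H03 at -1.45 and cDN33P0002J02 at -1.44. Their limma adjusted p lay between 0.00676 and 0.0135, and between 0.0212 and 0.0423 with the replicate block. In cDN33P0007L11 HTE2 replicate 3, at -0.34, lay within the other HTE2 fish (-0.97 to -0.14). In cDN33P0007K23 and cDN33P0002J02 it reached the LTE2 range, at 1.70 and 1.12, where the lowest LTE2 fish had 1.66 and 1.05. Under spike-in scaling, which raised every difference by the same amount, all 10 of these falls stayed below 0, between -1.50 and -0.41. That amount was less than the smallest of the 10 falls, so no sign could change. None of the 10 passed there.

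**Figure D2:**
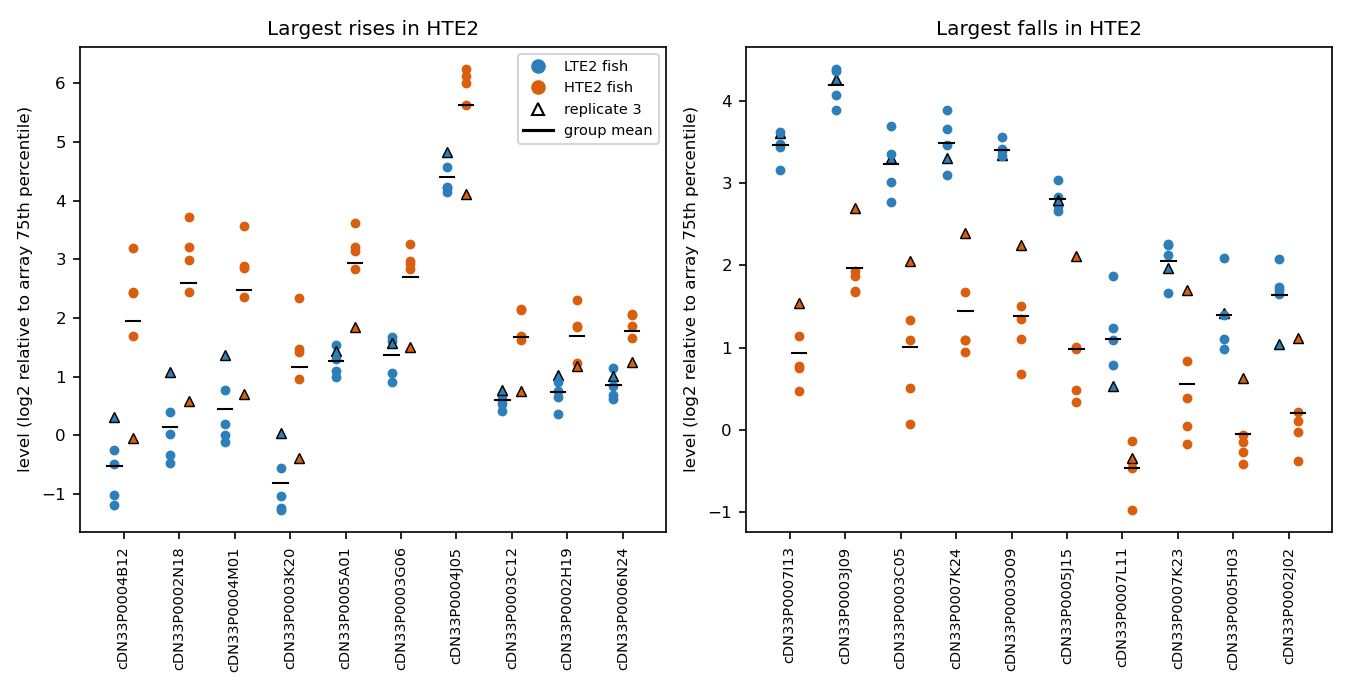
Level of the 10 largest rises (left) and the 10 largest falls (right) in each fish, in log2 units relative to the array 75th percentile on the y axis, with LTE2 in blue and HTE2 in orange, bars for group means and triangles for replicate 3. In the rises the HTE2 triangle lies among the LTE2 points or is the HTE2 point nearest to them, and in 7 of the 10 falls it lies below all LTE2 points while being the highest HTE2 point.

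In cDN33P0004B12, the largest rise, the LTE2 values were -0.26, -0.50, 0.31, -1.01 and -1.19 and the HTE2 values 2.45, 3.20, -0.04, 2.43 and 1.69. HTE2 replicates 1, 2, 4 and 5 were all above 1.6, and HTE2 replicate 3 lay below LTE2 replicate 3. The group means were -0.53 ± 0.60 and 1.94 ± 1.23 (SD over 5 fish), a change of 2.47 with an SE of 0.53. The adjusted p from limma was 0.013, and 0.0414 with the replicate block.

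The transcript cDN33P0002N18 rose by a log2 difference of 2.45 (5.47-fold, SE 0.53, limma adjusted p = 0.013), with LTE2 values of 0.40, 0.01, 1.08, -0.34 and -0.46 and HTE2 values of 3.21, 3.72, 0.59, 2.99 and 2.44. Fish by fish it followed cDN33P0004B12. After each profile was centred on its own mean, the 2 differed by a root mean square of 0.09 log2 units, against 1.50 and 1.51 for the profiles themselves. This was the closest pair among the 63 passing transcripts in relation to the size of the profiles, and it was picked out after the values were seen. Whether the 2 clones share sequence was not tested.

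Next came cDN33P0004M01, with a log2 difference of 2.03, and cDN33P0003K20, with 1.97 (limma adjusted p = 0.0171 and 0.0149). In cDN33P0004M01 HTE2 replicates 1, 2, 4 and 5 lay between 2.36 and 3.57, HTE2 replicate 3 at 0.71, and the LTE2 fish up to 1.37. In cDN33P0003K20 the same 4 fish lay between 0.96 and 2.34, HTE2 replicate 3 at -0.38, and the LTE2 fish between -1.27 and 0.04. In both, LTE2 replicate 3 was the highest fish of its group.

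The rise of cDN33P0005A01 was smaller but the groups did not overlap. Its LTE2 values were 1.55, 1.10, 1.44, 0.99 and 1.31 and its HTE2 values 3.21, 3.13, 1.85, 3.63 and 2.83, a log2 difference of 1.66 (SE 0.30, limma adjusted p = 0.00874). All 5 slides had it higher in HTE2, by 0.41 to 2.64.

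Of the other named rises, cDN33P0003G06 had a log2 difference of 1.34, cDN33P0004J05 1.23, cDN33P0003C12 1.07, cDN33P0002H19 0.94 and cDN33P0006N24 0.92. The groups did not overlap in cDN33P0002H19 and cDN33P0006N24. The brightest of them, cDN33P0004J05, had LTE2 values of 4.57, 4.22, 4.82, 4.22 and 4.14 and HTE2 values of 6.12, 6.01, 4.11, 6.24 and 5.63. HTE2 replicate 3 was the lowest of all 10 fish there, and the call (limma adjusted p = 0.0367) was lost in 10 of 25 alternatives. These were the brightness covariate, the replicate block (adjusted p = 0.0673) and leaving out any 1 fish other than the 2 of replicate 3. Under spike-in scaling, which raised every difference by the same amount, all 10 named rises lay between 1.94 and 3.50. Without HTE2 replicate 3 the named rises lay between 1.05 and 2.97, where they lay between 0.92 and 2.47 with it, and the named falls between -2.67 and -1.59, where they lay between -2.52 and -1.44.

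The 5 slides did not contribute alike to the passing transcripts. On slides 1, 2, 4 and 5 all 18 rises and all 45 falls had the sign of the group difference. They had passed on the difference over these same slides, so the shared sign is no separate evidence. On slide 3 this held for 10 of 18 rises and 39 of 45 falls. The median difference of the rises was 1.20, 1.13, 0.05, 1.54 and 1.01 on slides 1 to 5. That of the falls was -0.99, -1.03, -0.32, -1.88 and -1.25.

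HTE2 replicate 3 lay within the range of the LTE2 fish in 8 of the 18 rises and 17 of the 45 falls. HTE2 replicates 1, 2 and 5 did so in none of the 63, and HTE2 replicate 4 in 1, cDN33P0001D13. It was highest in HTE2 replicate 3, with HTE2 values of 0.82, 0.97, 1.55, 0.12 and 0.92 against LTE2 values up to 0.31. That HTE2 replicate 3 stands nearest to LTE2 was known for the whole array before these transcripts were chosen, and its share here is no separate evidence. The cause was not tested.

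**Figure D3:**
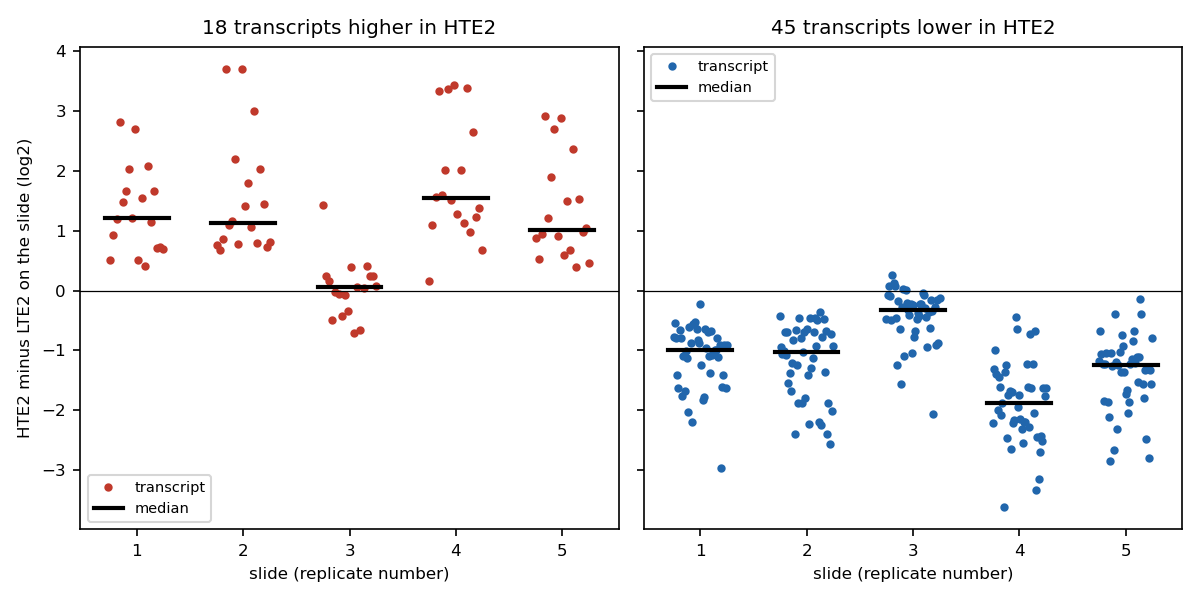
HTE2 minus LTE2 (y axis, log2) on each of the 5 slides (x axis) for the 18 transcripts higher (left, red) and the 45 lower in HTE2 (right, blue), 1 point per transcript, with the median as a bar. The medians lie near 0 on slide 3, at 0.05 and -0.32, and furthest from 0 on slide 4, at 1.54 and -1.88.

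The fish of HTE2 varied more among themselves than those of LTE2, with replicates 3 and 4 furthest from their group mean. Their root mean square deviations were 0.68 and 0.71, against 0.26 to 0.33 for HTE2 replicates 1, 2 and 5 and 0.25 to 0.35 in LTE2. The median SD of a library 33 transcript was 0.25 among LTE2 fish and 0.44 among HTE2 fish, and the HTE2 SD was the larger in 155 of 194 transcripts (79.9%). Over all transcripts tested the medians were 0.36 and 0.51, with the HTE2 SD the larger in 69.3%. Over the rest of the array at the same brightness and detection, contigs included, it was the larger in 79.7%. Without HTE2 replicate 3 the median HTE2 SD was 0.33 and the larger in 121, and without HTE2 replicate 4 it was 0.35 and the larger in 136. Up to 79 library 33 probes were spotted more than once on an array, and the SD of such repeats had a median between 0.04 and 0.08, which covers spot noise within an array and leaves out labelling, hybridisation and slide.

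Of the 6 transcripts with the highest means, 2 were among the 4 with the smallest SD, 3 were lower in HTE2 and 1 did not pass but spread widely in HTE2. The transcript cDN33P0004J09 lay between 4.97 and 5.46 in all 10 fish, with SDs of 0.13 in LTE2 and 0.11 in HTE2, and cDN33P0002N07 between 5.38 and 5.77, with SDs of 0.16 and 0.11. Their differences, -0.12 and 0.07, did not pass (limma adjusted p = 0.592 and 0.758). The other steady transcripts, cDN33P0003I08 and cDN33P0002C12, lay at 2.59 to 3.12 and at 0.94 to 1.63. Of those with the highest means, cDN33P0003L17, cDN33P0006B17 and cDN33P0004G10 passed as lower in HTE2, with differences of -0.74, -0.74 and -0.96 (limma adjusted p = 0.0452, 0.0218 and 0.0378). None of these 3 passed with the replicate block (0.0827, 0.0576 and 0.0659), and under spike-in scaling each had a difference above 0, of 0.28, 0.29 and 0.07. The fourth in level, cDN33P0002J14, had 5.39 to 5.86 in LTE2 and 5.29, 5.45, 4.96, 2.89 and 4.24 in HTE2, and did not pass (limma adjusted p = 0.0901).

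Of the 6 lowest levels, those of cDN33P0003F02, cDN33P0001D10, cDN33P0003N13 and cDN33P0002A19 did not pass, with differences of 0.34, -0.33, -0.53 and -0.48 (limma adjusted p between 0.0706 and 0.385). The other 2, cDN33P0004J19 and cDN33P0006O02, were lower in HTE2 without overlap, with differences of -1.25 and -1.38 (limma adjusted p = 0.0227 and 0.012). Both stayed below 0 when scaled to the spike-in RNA, at -0.23 and -0.35, where neither passed.

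In the 3 most variable transcripts HTE2 replicate 4 was the lowest fish. In cDN33P0004C05 it stood at -2.58, where the other 9 fish lay between 0.12 and 2.06. In cDN33P0004J12 it stood at -1.63 against 0.82 to 2.87, and in cDN33P0006G06 at -0.87 against 1.05 to 3.31. None of these 3 passed the test between the groups (limma adjusted p = 0.183, 0.373 and 0.5). The fourth, cDN33P0004B12, is the largest rise given above.

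HTE2 replicate 4 was below all 9 other fish in 88 library 33 transcripts (45.4%, against 41.0% of all transcripts tested) and above them in 31 (16.0% against 19.9%). In 15 it lay more than 1 log2 unit below every other fish, or 7.73%. The share was larger over all 9910 transcripts tested, at 10.66% (1056). No other fish lay so far below the rest in any library 33 transcript. Of the 15, 5 were called lower in HTE2, among them cDN33P0007I09 and cDN33P0006N18, where it lay 2.07 and 1.77 below the next fish. Its array was the brightest, with a 75th percentile of 1393, and the part of brightness in this was not tested. Without this fish 44 library 33 transcripts passed, 32 lower and 12 higher, or 22.7% against 16.4% of all transcripts, and the median difference was -0.26 against -0.18.

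**Figure D4:**
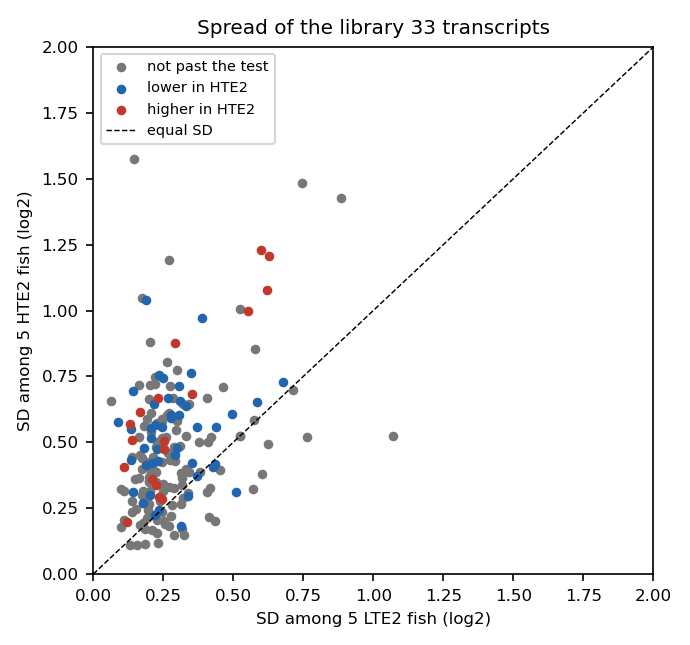
SD among the 5 LTE2 fish (x axis) against SD among the 5 HTE2 fish (y axis), both in log2 units, 1 point per library 33 transcript, with a dashed line of equal SD. In 155 of 194 transcripts the HTE2 SD is the larger, and the highest HTE2 SDs, up to 1.57, belong to transcripts that did not pass the test (grey).

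Other probes of the same clones gave nearly the same differences. For 79 of the 194 transcripts a further 161 probes were tested. Of these, 152 had a difference of the same sign as the brightest probe, and the median gap between the 2 differences was 0.05 log2 units. All 19 further probes of falls and 19 of 21 further probes of rises passed in the same direction in the fit over all probes (limma with Benjamini-Hochberg adjustment), and none passed in the opposite one. Of the 121 further probes of transcripts that did not pass, 114 did not pass either and the rest did. All probes read the same RNA on the same arrays, so they check the probe and not the difference between fish. The other probes were 0.32 log2 units dimmer at the median.

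The further probes of cDN33P0004B12 gave 2.48 and 2.55, those of cDN33P0002N18 2.39 and 2.41, and those of cDN33P0007L11 -1.57 and -1.55. For cDN33P0004M01 they gave 2.04 and 1.73. The largest falls, cDN33P0007I13, cDN33P0003J09, cDN33P0003C05, cDN33P0007K24, cDN33P0003O09 and cDN33P0005J15, each had 1 probe, so their size has no such check. The widest gap was in cDN33P0001G16, where the brightest probe gave -0.07 and a probe 2.12 log2 units dimmer gave 1.30, which did not pass (limma adjusted p over probes = 0.0866).

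**Figure D5:**
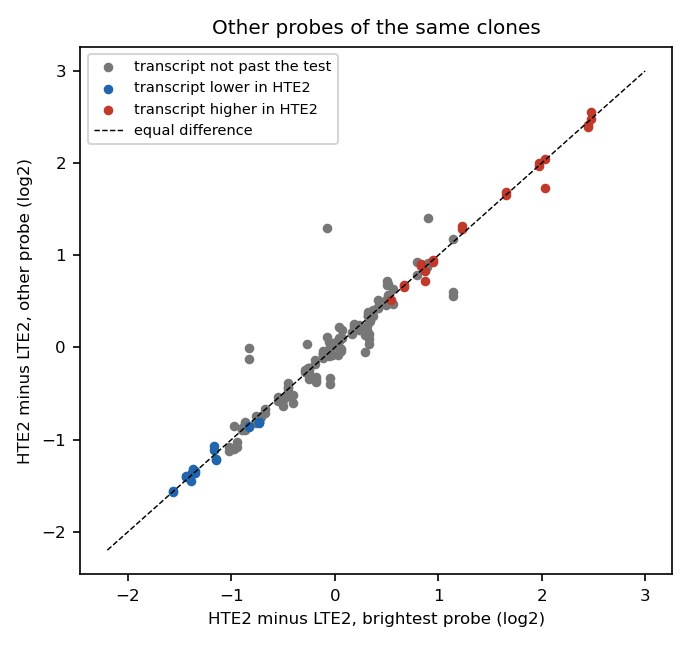
HTE2 minus LTE2 at the brightest probe of a clone (x axis, log2) against the same at each of its other probes (y axis, log2), 161 probes of 79 library 33 transcripts, with a dashed line of equal difference. All but 9 points share the sign of the brightest probe, and points of transcripts lower (blue) or higher (red) in HTE2 lie close to the line, within 0.30 log2 units.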

How the data were processed

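Per the labels' protocols, 100 ng of gonad RNA, of integrity above 7, was labelled with Cy3 for each array. The deposited scanner intensities come from Feature Extraction version 10.7.3.1, per the file headers, and are background-subtracted within each array and not normalized between arrays. The authors' deposited table holds log2 values whose column medians lie between 8.01 and 8.05. Its making is not described in any source used here, so its centring and normalization stay unknown, while scale and direction follow from the scanner values. The submitters' processing notes name limma.

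Outlier spots (1057 over all arrays) were left out, log2 intensities were taken minus each array's 75th percentile, and spots of a probe were averaged. The brightest probe of each transcript was kept when well above background on at least 5 arrays, which all 194 clones were, and no value of theirs was missing. Transcripts were tested in a two-sided test by lmFit and eBayes (limma 3.58.1, R 4.3.3), with group as the only term, at an adjusted p under 0.05. The fit was tested on simulated data with 200 of 9910 transcripts changed and the same spread in both groups. It recovered 35% of the 2-fold and 78% of the 4-fold changes, with 7 false calls. The real data had more changed transcripts and a wider spread in HTE2, so these shares need not hold for them. The number of fish limits the precision.

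Same-numbered arrays shared a slide, per the file headers. The labels do not pair fish. Named transcripts were the 10 largest passing rises and falls with the same sign on at least 4 slides, the 6 highest and 6 lowest levels, the 4 largest and 4 smallest SDs, those next to the bounds, and those whose probes differed by over 1 log2 unit. The planned gene lists could not be matched to clone names. Normexp correction used the median spot intensity, as the mean is not a column of these files, with an offset of 50. Spike-in scaling used 6 of the 10 spike-in probes, those well above background and not saturated on all arrays. The transcripts and all choices were made with earlier results of these data known.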

Additional observations from a re-analysis of the deposited data

Results flagged for a closer look

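Among 44 groups of 5 values, those of the 20 named rises and falls, the median level of the library 33 transcripts and the array brightness, 4 held 1 value well outside the other 4, where chance picks about 1 group in 20. The groups share the same fish and the 20 were chosen for large differences. The count of 4 is therefore not held to exceed chance. HTE2 replicate 3 was far below the other HTE2 fish in cDN33P0003G06, at 1.51 against a next value of 2.84, and in cDN33P0004J05, at 4.11 against 5.63. It was far above them in cDN33P0003J09, at 2.70 against 1.93. The dimmest array was that of LTE2 replicate 1, whose 75th percentile was 7.93 in log2 units against 9.0 for the next LTE2 array.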

How the results depend on the processing

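Against 63 passing library 33 transcripts (18 higher, 45 lower), 36 passed with the replicate block (10 higher, 26 lower), 16 with spike-in scaling (16 higher, 0 lower, median difference 0.66 in place of -0.36) and 2 with brightness as a covariate (0 higher, 2 lower). In the same order these were 32.5%, 18.6%, 8.25% and 1.03%. Of all transcripts 25.5%, 15.1%, 12.4% and 0.565% passed, so the share over the whole array moved with the setting too. The counts of 0 are limma's adjusted calls, and at an unadjusted p under 0.05 spike-in scaling had 1 lower and the brightness covariate 16 higher. Normexp correction left 26 lower, and leaving out both arrays of replicate 3 gave 69 lower. In either direction 23.7% and 47.4% passed in these fits, against 22.4% and 37.4% of all transcripts. Leaving out 1 fish gave 27 to 100 in all, 8 to 25 higher and 19 to 75 lower, the most without HTE2 replicate 3 and the fewest without LTE2 replicate 4. Those totals were 13.9% to 51.5%, against 11.6% to 41.8% of all transcripts. The remaining 10 alternatives kept each count within 1.5 times. Of the 20 named rises and falls, none changed sign in any of the 25 alternatives. They had been chosen for large passing differences with the same sign on at least 4 slides. Fits with the slide as a block, other detection filters, the fit on all probes and the variance trend left each difference unchanged. No sign could change in those fits. Spike-in scaling and median centring each raised every difference by the same amount, less than the smallest named fall, so no named sign could change there either. With brightness as a covariate 18 lost their call, while the differences of the 20 stayed at 0.836 to 1.12 times those without it and the median SE grew 1.41 times. Calls were also lost in 10 with spike-in scaling and in 1, cDN33P0004J05, with the replicate block. Leaving out 1 fish took away cDN33P0004J05 in 8 of 10 cases and cDN33P0002H19 in 4, and no other. Deviations of same-numbered arrays correlated at r = 0.39, 0.29 and 0.15 across transcripts on slides 1, 2 and 5, and at -0.27 and 0.04 on slides 3 and 4. Only on slides 1 and 2 was the same-numbered HTE2 array the best match of the LTE2 array. The number was not taken to pair fish because the labels give no pairing. The shared slide was fitted as a block. How much the dim signals limit the calls cannot be read from detection, which chose the transcripts. The causes were not tested.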
